A study of Zea mays with 9 samples.

Results

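Oxylipin and jasmonate synthesis in germinating maize seeds was followed through 8 genes: the lipoxygenase genes lox3 (GRMZM2G109130), lox4 (GRMZM2G109056), lox5 (GRMZM2G102760), lox6 (GRMZM2G040095), lox8 (GRMZM2G104843) and lox10 (GRMZM2G015419), and the OPDA reductase genes opr7 (GRMZM2G148281) and opr8 (GRMZM2G082087). They were taken by gene ID from a deposited table of 39301 genes, and all 8 were among the 22379 genes expressed highly enough to be tested (1 FPKM or more in 3 or more libraries, where FPKM is fragments per kilobase of gene, scaled to library size). RNA came from seeds at germination in 3 groups of 3 biological replicates each, NaCl+MT, NaCl and CK. By its title the study is about exogenous melatonin and salt stress, so NaCl+MT is read as salt with melatonin, NaCl as salt alone and CK as the usual code of an untreated control. The labels give no maize line, dose, duration or order of the treatments.

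Lipoxygenases add oxygen to linoleic and linolenic acid. The 9-lipoxygenases and 13-lipoxygenases put it at different carbons of the chain, and plastid 13-lipoxygenases feed both the green leaf volatiles and the jasmonates. On the jasmonate branch allene oxide synthase and allene oxide cyclase make OPDA, which peroxisomal OPDA reductases of the OPR7 and OPR8 kind reduce before beta-oxidation gives jasmonic acid, a hormone of wounding, defence and growth restraint. In maize lox3, lox4 and lox5 encode 9-lipoxygenases, and lox8 (ts1 in RefSeq) and lox10 encode 13-lipoxygenases. The lox6 protein is described as cleaving fatty acid hydroperoxides rather than forming them, so lox6 was kept apart from both classes. In maize lox8 is known as tasselseed1, needed for jasmonate in the tassel, and lox10 is known for green leaf volatile synthesis.

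The libraries differed in depth and the NaCl libraries stood apart. Relative to CK replicate 1, depth read from the steps between low FPKM values was 0.891 to 1.01 in NaCl+MT, 0.538 to 1.25 in NaCl and 1.00 to 1.82 in CK, with NaCl replicate 3 the shallowest. On the first principal component, which held 57.8% of the variance, NaCl+MT libraries lay between -25.6 and -15.8, NaCl libraries between 46.2 and 88.4, and CK libraries between -47.1 and -35.6. The storage protein genes zp15, zp16 and zp27 stayed at or below 2.82 FPKM in every library, and the endosperm regulator o2 was listed at 0 in all 9. Of 8 tested endosperm markers 2 rose and 1 fell in NaCl against CK, and the list summed to 72.4 to 94.2 FPKM in NaCl+MT, 250.4 to 396 in NaCl and 46.9 to 58.0 in CK, most of it from sh1, a sucrose synthase gene. The genes that rose were sh1 and a gene with the symbol MRP1 (GRMZM2G113203), and the one that fell was mn1. Markers were matched by symbol alone, and whether this MRP1 is the endosperm gene of that name was not checked. Of 5 tested embryo markers 1 rose in NaCl against CK, the oleosin gene ole1. The embryo list summed to 44.4 to 73.6 FPKM in NaCl+MT, 60.2 to 86.6 in NaCl and 38.8 to 51.03 in CK, and lec1 was listed at 0 in all 9 libraries. Most of that sum came from rab17, which did not pass the test in NaCl against CK. Of 3 tested root markers 1 fell in NaCl against CK, the aquaporin gene tip2b. The root list summed to 30.7 to 44.5 FPKM in NaCl+MT, 10.4 to 16.1 in NaCl and 28.4 to 56.9 in CK. Most of that difference came from tip2b, with a mean of 1.37 FPKM in NaCl and 25.7 in CK. The other tested root markers were level, rtcs at 7.12 FPKM in NaCl and 7.06 in CK and rth3 at 5.37 and 5.39. The green tissue list summed to 1.63 to 1.78 FPKM in NaCl+MT, 0.075 to 0.545 in NaCl and 0.403 to 1.32 in CK. Markers also differed between NaCl+MT and NaCl: sh1, MRP1 and ole1 were lower in NaCl+MT, and mn1, tip2b and the tested rbcS gene were higher. In such bulk samples fewer cells of a type and less RNA per cell cannot be told apart, and the part of these markers in the results below was not tested.

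With salt, members moved in both directions. Of the 8, lox4 and lox8 rose in NaCl against CK, lox6, lox10 and opr7 fell, and lox3, lox5 and opr8 did not pass the test. The 2 13-lipoxygenase members, lox8 and lox10, thus moved in opposite directions. The 5 members called compare with 26.0% of all tested genes called (13.6% higher and 12.4% lower). The NaCl and CK libraries did not overlap for 7 of the 8 members, against 40.9% of all tested genes. The median log2 fold change was -0.25 over the 8 members and 0.03 over all tested genes. All p-values for genes are those of limma's moderated test on log2(FPKM + 1), 2-sided and Benjamini-Hochberg adjusted over all tested genes, and on this scale fold changes of low genes are understated.

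With both salt and melatonin, most members differed from salt alone. This comparison of NaCl+MT with NaCl shares the NaCl libraries with the one before. The genes lox3, lox5, lox6, lox10 and opr7 rose, lox4 and lox8 fell, and opr8 did not pass (adjusted p = 0.0506). These 7 calls compare with 18.6% of all tested genes called (11.6% higher and 7.02% lower). The libraries of NaCl+MT and NaCl did not overlap for 7 of the 8, against 36.6% of all tested genes. The median log2 fold change was 0.87 over the members and 0.03 over all tested genes. The count is fragile: leaving out NaCl replicate 1, NaCl+MT replicate 2 or NaCl+MT replicate 3 brought it to 4, as did a fit of only the 2 groups. Calls over all genes fell too, to 3880, 2280, 2368 and 3182 in that order, against 4164 in the full fit. In each of these 4 cases lox5, lox6, lox10 and opr7 passed, and lox3, lox4 and lox8 did not.

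**Figure D1:**
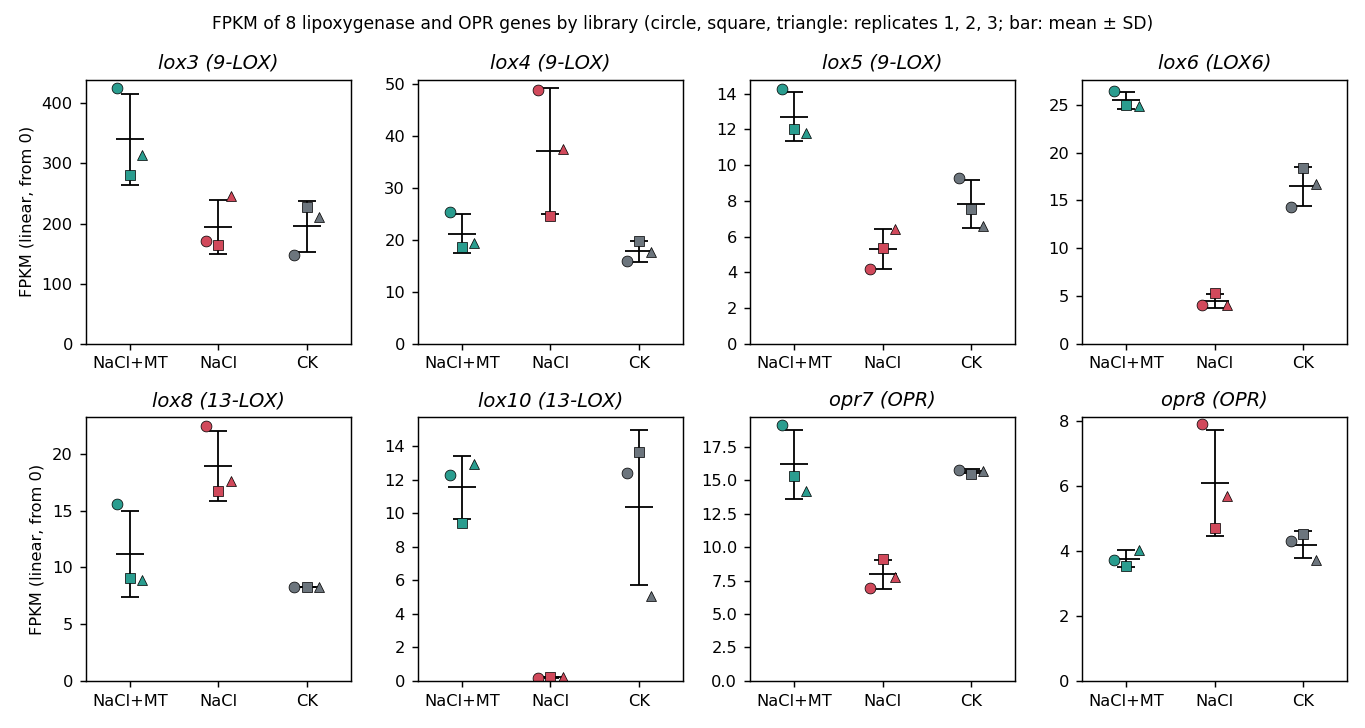
FPKM (vertical axes, linear from 0) of the 8 genes in each library of NaCl+MT, NaCl and CK. Circles, squares and triangles are replicates 1, 2 and 3, and bars show the mean ± SD of 3 libraries. In NaCl, lox10 lies between 0.184 and 0.236 FPKM, below every NaCl+MT and CK library, while lox4 and lox8 have their highest values there.

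Among the 9-lipoxygenase genes lox3 was by far the most abundant. It had 426, 281 and 313 FPKM in NaCl+MT replicates 1 to 3, 170.1, 165 and 245 FPKM in NaCl and 147, 228 and 211 FPKM in CK. The NaCl and CK values overlap, and all 3 NaCl+MT values lie above the other 6. The FPKM of lox3 averaged 193.5 ± 45.1 in NaCl and 195 ± 42.7 in CK (SD, n = 3 each), and limma put the log2 fold change at -0.01 (SE 0.24, adjusted p = 0.979). In NaCl+MT it averaged 340.1 ± 75.8 FPKM, higher than in NaCl by 0.81 on the log2 scale (SE 0.24, adjusted p = 0.0413). That rise did not pass without any single NaCl+MT library (adjusted p = 0.0620 to 0.137), nor without NaCl replicate 1 (0.0750) or 2 (0.0988) or CK replicate 2 (0.0524) or 3 (0.0591).

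The lox4 gene lies next to lox3: in RefSeq's annotation (Zm-B73-REFERENCE-NAM-5.0) no protein-coding gene separates them on chromosome 1. It had 25.4, 18.6 and 19.4 FPKM in NaCl+MT, 48.9, 24.6 and 37.5 FPKM in NaCl and 15.8, 19.8 and 17.7 FPKM in CK. Every NaCl library was above every CK library, and the lowest NaCl library was below the highest NaCl+MT library. Relative to CK, lox4 was higher in NaCl by 0.97 on the log2 scale (SE 0.23, adjusted p = 0.0108). Relative to NaCl it was lower in NaCl+MT, with a log2 fold change of -0.74 (SE 0.23, adjusted p = 0.0446). Without NaCl replicate 1, its highest library, that change was -0.52 (adjusted p = 0.103). It also missed the threshold without NaCl replicate 3 (0.101), NaCl+MT replicate 2 (0.146) or 3 (0.135) or any CK library (0.0588 to 0.0633).

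The lox5 gene, a close relative of lox4, moved the other way. It had 14.3, 12.04 and 11.8 FPKM in NaCl+MT, 4.19, 5.35 and 6.42 FPKM in NaCl and 9.30, 7.545 and 6.61 FPKM in CK. The 3 groups do not overlap, with NaCl lowest and NaCl+MT highest. The log2 fold change of NaCl over CK was -0.48 (SE 0.17, adjusted p = 0.0634), short of the threshold, although it passed without NaCl replicate 3 (-0.61, adjusted p = 0.0375) and after median-ratio scaling (-0.52, adjusted p = 0.0302) or quantile normalisation (-0.53, adjusted p = 0.0330). In NaCl+MT lox5 was higher than in NaCl by 1.13 on the log2 scale (SE 0.17, adjusted p = 0.00171).

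The lox6 gene was among those with the least spread. It had 26.5, 25.0 and 24.9 FPKM in NaCl+MT, 4.04, 5.35 and 4.07 FPKM in NaCl and 14.3, 18.4 and 16.7 FPKM in CK. The groups are far apart, and NaCl+MT lies above CK as well. Its log2 fold change was -1.67 for NaCl over CK (SE 0.14, adjusted p = 3.22e-05) and 2.28 for NaCl+MT over NaCl (SE 0.14, adjusted p = 1.12e-05). In FPKM means NaCl+MT was 5.68-fold of NaCl.

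The 13-lipoxygenase gene lox10 changed most among the 8. It had 12.3, 9.40 and 12.95 FPKM in NaCl+MT, 0.184, 0.236 and 0.209 FPKM in NaCl and 12.4, 13.7 and 5.08 FPKM in CK. The NaCl values are all low and close together, whereas NaCl+MT and CK overlap and CK replicate 3 is the lowest of those 6. The mean FPKM in NaCl+MT was 55.1-fold that in NaCl, and the mean in NaCl was 49.5-fold lower than in CK. On the log2(FPKM + 1) scale the changes were -3.13 for NaCl over CK (SE 0.29, adjusted p = 4.61e-05) and 3.36 for NaCl+MT over NaCl (SE 0.29, adjusted p = 5.74e-05). With a pseudocount of 0.1 they were -4.96 and 5.22. Of all tested genes, 99.5% had a smaller absolute log2 fold change than lox10 in NaCl against CK, and 99.8% in NaCl+MT against NaCl.

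The other 13-lipoxygenase gene, lox8, had its highest values in NaCl. It had 15.6, 9.085 and 8.91 FPKM in NaCl+MT, 22.5, 16.8 and 17.6 FPKM in NaCl and 8.315, 8.265 and 8.29 FPKM in CK. The CK values are nearly equal and below all others, and NaCl+MT replicate 1 lies closer to NaCl than its 2 companion libraries do. Relative to CK, lox8 was higher in NaCl by 1.09 on the log2 scale (SE 0.20, adjusted p = 0.00327). Its log2 fold change of NaCl+MT over NaCl was -0.74 (SE 0.20, adjusted p = 0.0279). That call was lost without NaCl replicate 1 (-0.62, adjusted p = 0.0675), NaCl+MT replicate 2 (-0.63, adjusted p = 0.113) or NaCl+MT replicate 3 (-0.61, adjusted p = 0.113). Without NaCl+MT replicate 1 the change was -0.99 (adjusted p = 0.00403).

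Of the reductase genes that act after OPDA, opr7 was the more abundant. It had 19.1, 15.3 and 14.2 FPKM in NaCl+MT, 6.97, 9.15 and 7.80 FPKM in NaCl and 15.8, 15.5 and 15.7 FPKM in CK. The NaCl libraries lie below the other 6, which overlap. Its log2 fold change was -0.90 for NaCl over CK (SE 0.15, adjusted p = 0.00165) and 0.94 for NaCl+MT over NaCl (SE 0.15, adjusted p = 0.00193).

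The near-duplicate opr8 had 3.715, 3.54 and 4.04 FPKM in NaCl+MT, 7.91, 4.70 and 5.69 FPKM in NaCl and 4.32, 4.535 and 3.73 FPKM in CK. All NaCl values are above the other 6. Neither change passed the threshold: the log2 fold change was 0.43 for NaCl over CK (SE 0.17, adjusted p = 0.0951) and -0.55 for NaCl+MT over NaCl (SE 0.17, adjusted p = 0.0506). Without NaCl replicate 2, its lowest NaCl library, both passed (0.57, adjusted p = 0.0359, and -0.70, adjusted p = 0.0221). The change of NaCl+MT over NaCl also passed after median-ratio scaling (-0.59, adjusted p = 0.0450) or quantile normalisation (-0.64, adjusted p = 0.0257) and in a fit without the variance trend (-0.55, adjusted p = 0.0494).

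**Figure D2:**
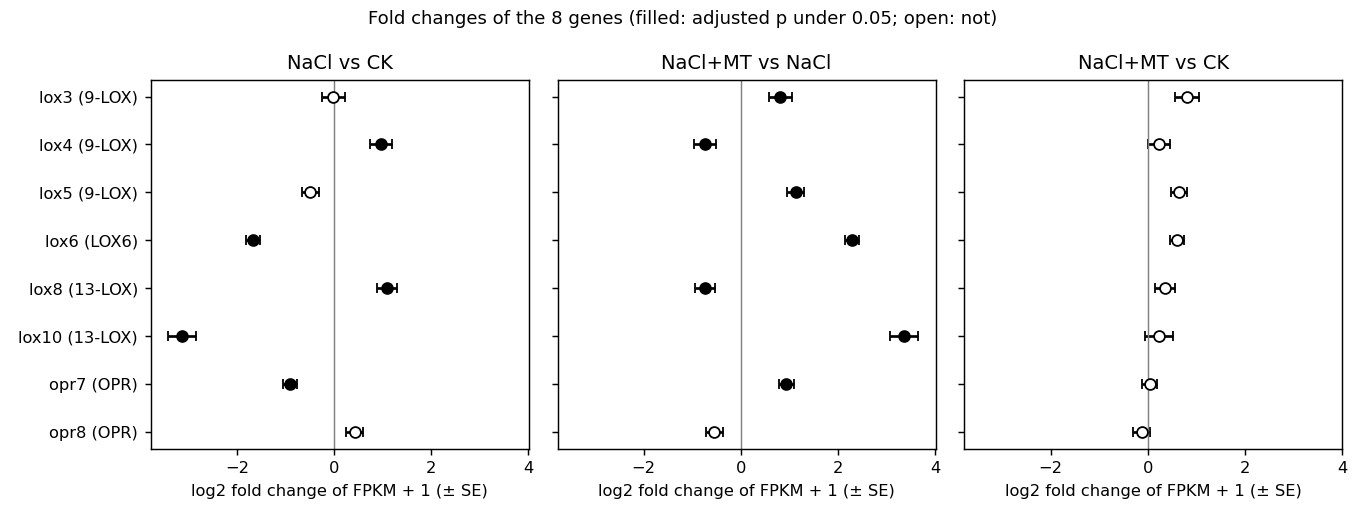
log2 fold changes of FPKM + 1 (horizontal axes) for the 8 genes (rows) in NaCl over CK, NaCl+MT over NaCl and NaCl+MT over CK, with bars of ± 1 SE of the moderated fit. Filled points have an adjusted p under the threshold of 0.05. In NaCl against CK lox10 lies at -3.13 and lox8 at 1.09, and in NaCl+MT against CK no point is filled.

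Seeds given both salt and melatonin were also set against CK. None of the 8 members passed limma's threshold there, where 0.961% of all tested genes did. At an unadjusted p under 0.05 there were 3, lox3, lox5 and lox6, against 18.3% of all tested genes at that threshold. Their log2 fold changes were 0.80 for lox3 (SE 0.24, adjusted p = 0.132), 0.64 for lox5 (SE 0.17, adjusted p = 0.103) and 0.60 for lox6 (SE 0.14, adjusted p = 0.0757). With array weights these 3 passed, and lox5 and lox6 passed in a fit of only the 2 groups or without NaCl replicate 1. Those fits called far more genes in all, 3663, 1082 and 873 in that order, against 215 in the full fit. All NaCl+MT values lay above all CK values for lox3, lox5, lox6 and lox8, 4 of 8 members, against 31.1% of all tested genes without overlap in either direction. The change of lox10 was 0.23 (SE 0.29, adjusted p = 0.720) and that of opr7 0.04 (SE 0.15, adjusted p = 0.931). A miss of the threshold does not show that levels in NaCl+MT and CK were the same.

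The members also differed within classes of like enzymes, which the ratio of 2 genes within each library shows directly. Each ratio is the log2(FPKM + 1) of the first gene minus that of the second. The lox8 over lox10 ratio was -0.07 ± 0.41 in NaCl+MT, 4.03 ± 0.25 in NaCl and -0.19 ± 0.70 in CK (SD, n = 3 each). The lox4 over lox5 ratio was 0.68 ± 0.10 in NaCl+MT, 2.55 ± 0.64 in NaCl and 1.10 ± 0.34 in CK. For opr7 over opr8 it was 1.84 ± 0.25 in NaCl+MT, 0.36 ± 0.50 in NaCl and 1.69 ± 0.13 in CK. In these 3 pairs NaCl did not overlap either other group. The neighbours lox3 and lox4 had a ratio of 3.94 ± 0.09 in NaCl+MT, 2.38 ± 0.52 in NaCl and 3.36 ± 0.20 in CK, with no overlap between any groups. In all 8 of these comparisons with NaCl the exact permutation test gave p = 0.10, 2-sided, the smallest that 3 libraries against 3 allow, and 0.133 after Benjamini-Hochberg adjustment over the 12 tests. With 3 libraries a group this exact test therefore cannot go under 0.05. The pairs lox4 and lox5, and opr7 and opr8, are close sequence relatives, and how reads that fit both copies were counted is not given in the sources used here. The same limit holds for lox10 and its duplicate lox11, and so for the lox8 over lox10 ratio.

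**Figure D3:**
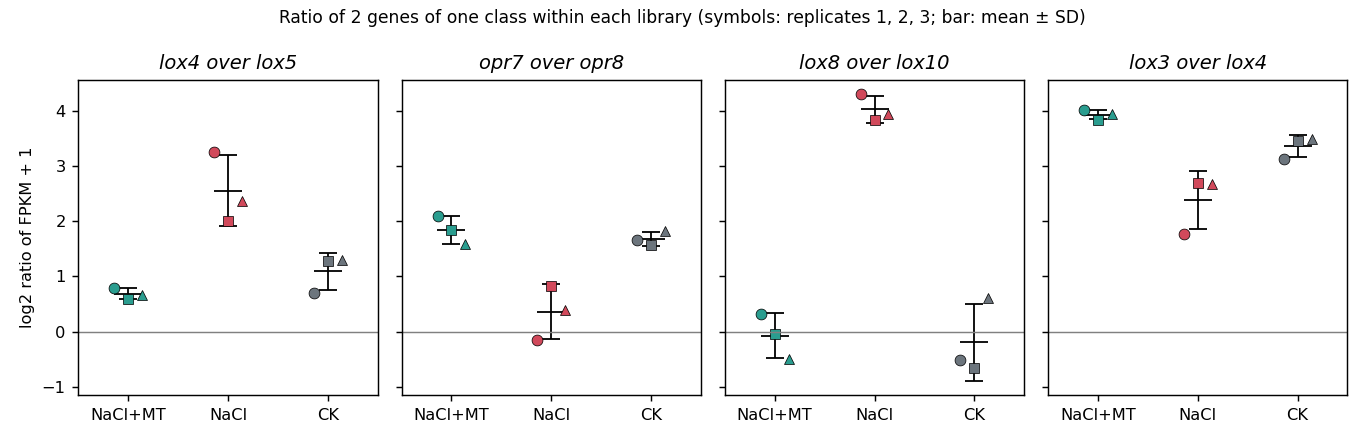
log2 ratio of FPKM + 1 of one gene over another of its class (vertical axis) in each library of NaCl+MT, NaCl and CK. Symbols are replicates 1, 2 and 3 and bars the mean ± SD of 3 libraries. The lox8 over lox10 ratio lies between 3.85 and 4.31 in NaCl and between -0.66 and 0.61 in the other 6 libraries.

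The members of each class were also summed. Since FPKM is per length, levels of different genes can be added and set side by side. The 9-lipoxygenase members lox3, lox4 and lox5 summed to 374 ± 80.8 FPKM in NaCl+MT, 236 ± 48.5 in NaCl and 221 ± 43.5 in CK (SD, n = 3 each). Of this sum lox3 made up 90.2 to 91.5% in NaCl+MT, 76.2 to 84.8% in NaCl and 85.4 to 89.7% in CK. The sum of lox8 and lox10 was 22.8 ± 4.77 FPKM in NaCl+MT, 19.2 ± 3.07 in NaCl and 18.7 ± 4.63 in CK. The share of lox10 in it was 44.1 to 59.2% in NaCl+MT, 0.812 to 1.39% in NaCl and 38.0 to 62.3% in CK. The share ranges of lox10 in NaCl do not touch those of the other groups. The sum of opr7 and opr8 was 19.98 ± 2.498 FPKM in NaCl+MT, 14.1 ± 0.721 in NaCl and 19.9 ± 0.359 in CK. Of this opr7 made up 77.8 to 83.7% in NaCl+MT, 46.8 to 66.1% in NaCl and 77.4 to 80.8% in CK. These sums are descriptions with no test, and they hold members only, so they are not the levels of whole classes. The duplicate of lox10, lox11, is in none of them. Its mean was 31.6 ± 3.89 FPKM in NaCl+MT, 8.84 ± 2.57 in NaCl and 29.9 ± 8.90 in CK.

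Within each group the order of levels by mean FPKM can be given. In NaCl+MT it ran lox3, lox6, lox4, opr7, lox5, lox10, lox8, opr8, and neighbours from lox6 to lox8 overlap. In NaCl it ran lox3, lox4, lox8, opr7, opr8, lox5, lox6, lox10, and neighbours from opr7 to lox6 overlap. In CK it ran lox3, lox4, lox6, opr7, lox10, lox8, lox5, opr8, and neighbours overlap from lox4 to opr7 and from lox10 to lox5.

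Profiles were compared by the root mean square distance of log2(FPKM + 1), centred on each gene's mean over the 9 libraries. Among the members the nearest pair was lox4 and lox8, at 0.20, which belong to different classes, followed by lox4 and opr8 at 0.28 and lox5 and opr7 at 0.30. The farthest was lox8 and lox10, at 2.00. Among 2043 other named genes, those nearest to lox10 were glu2 (0.31), a beta-glucosidase gene, kin1 (0.35) and LTP3 (0.42). The glu2 gene averaged 11.6 ± 0.725 FPKM in NaCl+MT, 0.191 ± 0.212 in NaCl and 10.8 ± 2.10 in CK. Nearest to lox6 were FdI (0.18), plr354a (0.28) and ERECTA (0.29), the last encoding a receptor kinase. The FdI gene was low, with means of 3.62 FPKM in NaCl+MT, 0.101 in NaCl and 2.86 in CK. Since this scale understates fold changes of low genes, a near profile need not have a like fold change in FPKM. The 3 nearest to lox3 included aos1 (0.20), an allene oxide synthase gene, beside cyclin11 (0.16) and LAC1 (0.20). The nearest to lox4 was CIPK16 (0.12), to lox5 kip (0.11), to lox8 NAC78 (0.12), to opr7 EREB208 (0.12) and to opr8 KNR6 (0.08). For scale, the distance of each member from its own mean was 1.57 for lox10, 0.97 for lox6 and 0.29 to 0.51 for the other 6.

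The rest of the lipoxygenase family was also split. Of 5 further lipoxygenase genes with a matching symbol 4 were tested, and in NaCl against CK 2 fell and 1 rose. Over all tested genes 26.0% were called there. The duplicate of lox10, lox11, fell to 8.84 ± 2.57 FPKM in NaCl, against 29.9 ± 8.90 in CK (log2 fold change -1.65, SE 0.23, adjusted p = 0.000703). The lox1 gene averaged 51.95 ± 7.11 FPKM in NaCl and 122 ± 25.0 in CK (-1.21, SE 0.22, adjusted p = 0.00273). The lox9 gene rose, at 8.18 ± 1.59 FPKM in NaCl and 4.84 ± 0.334 in CK (0.64, SE 0.16, adjusted p = 0.0147), a call lost without CK replicate 2 (adjusted p = 0.0541). In NaCl+MT against NaCl, where 18.6% of all tested genes were called, 2 of the 4 rose and none fell. They were lox1, at 207 ± 56.7 FPKM in NaCl+MT (1.95, SE 0.22, adjusted p = 0.000263), and lox11, at 31.6 ± 3.89 FPKM in NaCl+MT (1.75, SE 0.23, adjusted p = 0.000722).

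Between the lipoxygenases and the reductases stand allene oxide synthase and cyclase. Of 5 tested genes of these steps 2 fell and none rose in NaCl against CK, and 1 rose and none fell in NaCl+MT against NaCl. Over all tested genes 26.0% and 18.6% were called in these comparisons. The synthase gene aos2 had 10.2, 9.24 and 9.02 FPKM in NaCl+MT, 2.77, 3.97 and 2.90 FPKM in NaCl and 5.49, 5.44 and 6.24 FPKM in CK. The 3 groups do not overlap. Its log2 fold change was -0.68 for NaCl over CK (SE 0.15, adjusted p = 0.00749) and 1.32 for NaCl+MT over NaCl (SE 0.15, adjusted p = 0.000270). The other fall was that of aos3, at 0.629 ± 0.0673 FPKM in NaCl and 1.40 ± 0.432 in CK (-0.54, SE 0.16, adjusted p = 0.0299). It was lost without CK replicate 1 (adjusted p = 0.0512) or 3 (0.109), NaCl replicate 2 (0.0606) or 3 (0.0625), or NaCl+MT replicate 3 (0.0504). The aos3 call was also lost after quantile normalisation (0.0990) and with array weights (0.0515). With the replicate number as a block (0.0535) or a fit of only the 2 groups (0.0688) it did not pass either. The abundant genes aos1 and aoc1 did not pass in either comparison. The mean FPKM of aos1 was 266 ± 53.2 in NaCl+MT, 169.9 ± 25.5 in NaCl and 194 ± 31.5 in CK (adjusted p = 0.0506 for NaCl+MT over NaCl).

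Of the other OPR genes 4 of 5 were tested, and 2 rose and none fell in NaCl against CK. Over all tested genes 26.0% were called there. The opr1 gene averaged 17.4 ± 5.96 FPKM in NaCl and 4.37 ± 0.0770 in CK (log2 fold change 1.72, SE 0.23, adjusted p = 0.000463). The opr2 gene averaged 11.8 ± 6.32 FPKM in NaCl and 2.43 ± 0.463 in CK (1.75, SE 0.37, adjusted p = 0.00664), with 4.60 FPKM in NaCl replicate 1 and 14.7 and 16.2 FPKM in the other 2. In NaCl+MT opr1 fell to 4.64 ± 0.651 FPKM (-1.65 against NaCl, SE 0.23, adjusted p = 0.000871), while opr2 stood at 5.58 ± 1.75 FPKM (-0.84, SE 0.37, adjusted p = 0.148, and -1.35, adjusted p = 0.00215, without NaCl replicate 1). Both belong to a group of OPR proteins that is not tied to jasmonate synthesis.

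**Figure D4:**
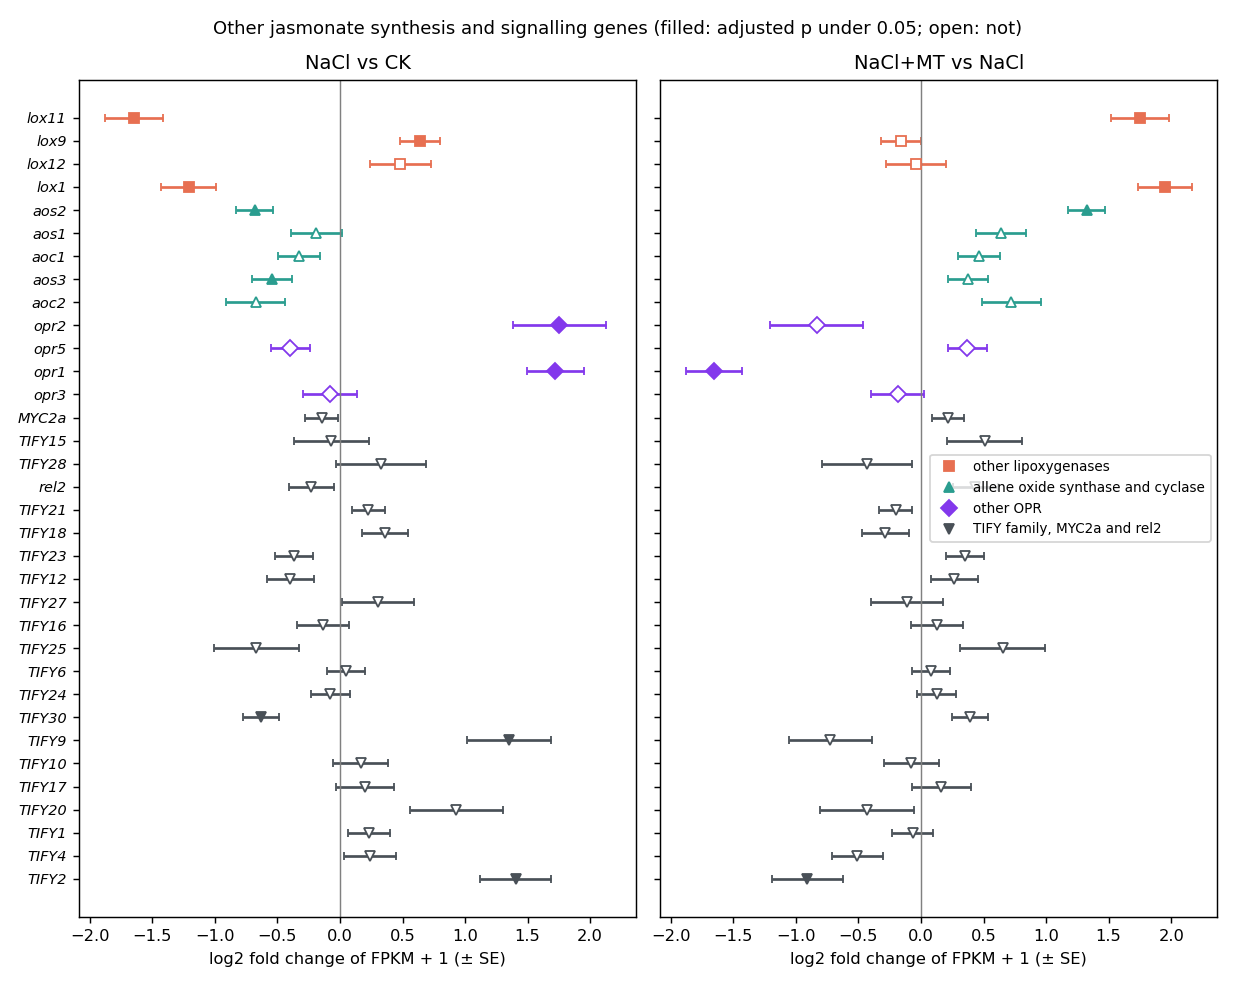
log2 fold changes of FPKM + 1 (horizontal axes, bars ± 1 SE) of the tested genes of the lists around the 8 members, in NaCl over CK (left) and NaCl+MT over NaCl (right). Filled symbols have an adjusted p under 0.05. In NaCl against CK opr1 and opr2 lie at 1.72 and 1.75, and lox11 and lox1 at -1.65 and -1.21.

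Jasmonate acts by removing JAZ repressors from transcription factors such as MYC2. In the list of TIFY family genes, the family that holds the JAZ repressors, with the transcription factor gene MYC2a and the corepressor gene rel2, 21 of 23 genes were tested. In NaCl against CK 2 rose and 1 fell, and in NaCl+MT against NaCl 1 fell. These counts are lower shares than the 26.0% and 18.6% of all tested genes called in the 2 comparisons. The TIFY2 gene averaged 10.9 ± 5.12 FPKM in NaCl+MT, 20.8 ± 6.38 in NaCl and 7.05 ± 1.21 in CK. Its log2 fold change was 1.41 for NaCl over CK (SE 0.28, adjusted p = 0.00517) and -0.91 for NaCl+MT over NaCl (SE 0.28, adjusted p = 0.0485), the second lost without 7 of the 9 libraries taken singly (adjusted p up to 0.170). The TIFY9 gene rose in NaCl (1.35, SE 0.33, adjusted p = 0.0143), a call lost without CK replicate 1 (0.0609), and TIFY30 fell (-0.63, SE 0.14, adjusted p = 0.00995). The level of MYC2a was 17.8 ± 2.54 FPKM in NaCl+MT, 15.1 ± 0.103 in NaCl and 16.8 ± 0.264 in CK. The single gene with the symbol GH3 did not pass in either comparison, at 87.9 ± 18.4 FPKM in NaCl+MT, 66.9 ± 23.5 in NaCl and 73.1 ± 17.3 in CK.

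In the list of wound and jasmonate response genes 19 of 28 genes were tested. Of these 2 rose and 2 fell in NaCl against CK, while 4 rose and 1 fell in NaCl+MT against NaCl. Over all tested genes 26.0% and 18.6% were called in these comparisons. The list took in 23 genes by sbp symbols, most of them of SBP-box transcription factors, which are no wound genes, and 15 of these were tested. They include SBP1, which RefSeq also lists as hsbp1, the name of a heat shock factor binding protein gene. It fell in NaCl against CK (-4.68, SE 0.65, adjusted p = 0.000623), as did sbp20 (-0.66, SE 0.15, adjusted p = 0.00870), while an sbp7 gene (GRMZM2G098557) rose (0.49, SE 0.14, adjusted p = 0.0304). Of the other 4 tested 1 rose, wip1, a wound-induced Bowman-Birk inhibitor gene, which had 63.8, 22.0 and 55.8 FPKM in NaCl+MT, 1529, 474 and 353 FPKM in NaCl and 99.4, 107 and 61.5 FPKM in CK. All NaCl values of wip1 lie above the other 6, with replicate 1 the highest. Its log2 fold change was 2.86 for NaCl over CK (SE 0.53, adjusted p = 0.00327) and -3.86 for NaCl+MT over NaCl (SE 0.53, adjusted p = 0.000867). In NaCl+MT against NaCl SBP1 (4.18, SE 0.65, adjusted p = 0.00179), sbp20, sbp23 and sbp25 rose. The rise of sbp23 (0.73, adjusted p = 0.0391) was lost without 7 of the 9 libraries taken singly. The proteinase inhibitor gene MPI had 1379, 733 and 1434 FPKM in NaCl+MT, 11301, 2147 and 1866 FPKM in NaCl and 1455, 1747 and 495 FPKM in CK. All its NaCl values were above the others, but neither change passed (adjusted p = 0.0909 for NaCl over CK and 0.125 for NaCl+MT over NaCl).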

How the data were processed

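The deposited table holds 1 FPKM value per gene and library, computed by the authors, and was used as deposited. Per the submitters' processing notes HISAT2, featureCounts, DESeq2 and build B73 RefGen_v3 were involved, in roles and versions that are not given. Read totals are not given, so absolute depth is unknown and no counting intervals were made. Relative depth came from 149 low genes whose FPKM in the other 7 libraries were whole multiples of 1 step (tolerance 0.06), a property they were chosen for. In CK replicate 2 and NaCl replicate 3, left out of that choice, 95.1% and 98.3% of values were whole multiples. The step of each library was itself picked for a high share of whole multiples, so these shares are no independent check of depth. Genes reaching 1 FPKM in 3 or more libraries were fitted as log2(FPKM + 1) with limma 3.58.1 (R 4.3.3), in a single model of the 3 groups with its trend option. P-values were Benjamini-Hochberg adjusted over 22379 genes, with a threshold of 0.05. SE are of the moderated fit. Ratios were tested by exact permutation in scipy 1.17.1. Symbols came from RefSeq (Zm-B73-REFERENCE-NAM-5.0, names and neighbours only), where 18908 IDs matched, 18387 of them 1 gene each. The lists were symbol patterns, and 1 pattern set, for hydroperoxide lyase and beta-oxidation, matched no gene. Named are all 8 members, up to 3 called genes per list and comparison with the largest change, or else the most abundant, and the 3 nearest profiles per member. Genes named beside these (sbp7, sbp25, MPI, MYC2a, aoc1, mir1, and the marker genes) were chosen after their values were seen. The members and lists were chosen with earlier results of these data known. The p-values measure the spread between the deposited biological replicates, whose origin the labels do not describe further. Same-numbered libraries did not deviate together, so the groups were fitted unpaired. Alternatives changed the pseudocount, filter, scaling, trend, weights, samples fitted and libraries left out.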

Additional observations from a re-analysis of the deposited data

How the results depend on the processing

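The changes of lox6, lox10 and opr7 kept their direction and stayed past the threshold in NaCl against CK and in NaCl+MT against NaCl under all 21 alternatives, as did those of lox4 and lox8 in NaCl against CK and of lox5 in NaCl+MT against NaCl. The lox3 rise in NaCl+MT against NaCl was lost in 13 alternatives (adjusted p from 0.0278 to 0.181), the lox4 fall in 12 (0.00689 to 0.146) and the lox8 fall in 4 (0.00286 to 0.113). The cause was not tested. Of all 501 alternative fold changes of members 446 kept direction and side of the threshold, 29 lost it, 15 gained it and 11 reversed. At a minimum FPKM of 5 opr8 was not tested, and 3684 genes were called in NaCl against CK, 2605 in NaCl+MT against NaCl and 123 in NaCl+MT against CK. Leaving out 1 library at a time gave 3849 to 6017 genes called in NaCl against CK, 2280 to 4220 in NaCl+MT against NaCl (4 to 7 members, 0 to 3 of them lower) and 6 to 873 in NaCl+MT against CK (0 to 2 members, 0 to 2 of them higher). Of members lower in NaCl+MT against NaCl there was 1 with no filter, 1 without both replicate 1 libraries of the salt groups (chosen after seeing the data) and 0 in a fit of only the 2 groups, where 4 members in all were called. In NaCl+MT against CK 54 genes were called with no filter, 136 after median-ratio scaling, 3663 with array weights (3 members, 3 of them higher), 1082 in the 2-group fit (2 members, 2 of them higher) and 360 without both replicate 1 libraries. The share of calls that were higher was 62.2% in NaCl+MT against NaCl and 51.5% after quantile normalisation. In NaCl+MT against CK it was 70.7%, 51.5% after median-ratio scaling and 45.5% after quantile normalisation. Scaling moved the median of all genes by under 0.1 on the log2 scale.

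With the replicate number as a block, 4934 genes were called in NaCl against CK, 3498 in NaCl+MT against NaCl and 72 in NaCl+MT against CK. Of members 5, 5 and 0 were called in these comparisons, 1 of them lower in NaCl+MT against NaCl. Same-numbered libraries share only a number, with correlations of their deviations between -0.368 and 0.145.

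Small differences changed sign. The lox3 log2 fold change of NaCl over CK was 0.10 after quantile normalisation, 0.069 without both replicate 1 libraries, and -0.20 to 0.11 with 1 library left out. In NaCl+MT over CK opr7 was -0.049 after median-ratio scaling, -0.060 with array weights, -0.083 without both replicate 1 libraries and -0.083 to 0.12 with 1 library left out. With 1 library left out lox10 ranged from -0.17 to 0.46 in NaCl+MT over CK, GH3 from -0.42 to 0.048 in NaCl over CK, and the lox8 over lox10 log2 ratio from -0.12 to 0.52 in NaCl+MT over CK. Depth in reads is unknown, so low values such as those of lox10 in NaCl carry no counting interval.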

Other observations

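Within NaCl+MT, replicate 1 was the highest of the 3 libraries for 6 of the 8 members (lox3, lox4, lox5, lox6, lox8 and opr7) and for 16 of the 21 tested genes of the TIFY, MYC2a and rel2 list, against 42.2% of all tested genes. Within NaCl, replicate 1 was the highest for 3 of the 8 members and for 13 of those 21 genes, against 31.9% of all tested genes. Within CK, replicate 2 was the highest for 5 of the 8 members, against 27.1% of all tested genes, and replicate 1 for 3 of the 8, against 46.8%. TIFY9 had its highest NaCl+MT value in replicate 1 and its highest NaCl and CK values in replicate 3, at 4.08, 0.822 and 1.34 FPKM in NaCl+MT, 3.54, 3.24 and 4.07 FPKM in NaCl and 0.443, 0.686 and 1.43 FPKM in CK. Without NaCl+MT replicate 1 its log2 fold change of NaCl+MT over NaCl was -1.16 (adjusted p = 0.0130), against -0.73 (adjusted p = 0.162) with all 9 libraries.

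The cysteine protease gene mir1 of the wound list was listed at 0 in all 3 NaCl+MT and all 3 CK libraries and at 0.941, 3.28 and 4.07 FPKM in NaCl. It did not reach 1 FPKM in 3 libraries, so it was not tested. It was picked after its values were seen.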
